A study of Homo sapiens with 2 samples.

Results

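The 9 genes described here encode parts of the HLA antigen presentation machinery or switch it on: HLA-B, HLA-C, HLA-E, B2M, TAP1, TAP2, TAPBP, NLRC5 and CIITA. They were taken by gene name from a table of 36814 gene windows, and each name matched 1 window. K562, an established human leukaemia line with erythroid features, is known for carrying very little HLA protein on its surface. The group treated with 0.1% DMSO for 1 h and the group left untreated each had 1 PRO-seq library, an assay that sequences RNA made by engaged polymerases during a short run-on in permeabilised cells. The cells of both libraries grew in the same medium, and neither carried a stated genetic change. Each window reached 3 kb to either side of an annotated gene start, on hg38. With 1 library per treatment no difference has a replicate check, no test was made, and all intervals are exact 95% intervals that cover counting error only.

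HLA class I molecules show peptides from inside the cell to T cells and are recognised by receptors of natural killer cells, which kill cells that lack them. A heavy chain, such as HLA-B, HLA-C or the less variable HLA-E, pairs with the light chain beta-2-microglobulin, the product of B2M. TAP1 and TAP2 form the pump that moves peptides into the endoplasmic reticulum, and tapasin, the product of TAPBP, holds the pump beside the empty class I molecule while it is loaded. NLRC5 is the coactivator of class I promoters and CIITA that of class II promoters. Both act through factors already seated on a promoter module: the RFX complex on the X1 box, CREB and ATF1 on the X2 box and NF-Y on the Y box. Interferons raise the same genes through the ISRE, the response element bound by IRF and STAT factors.

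The starts of some of these genes are printed to show which of these elements they hold. RefSeq promoters (GRCh38.p14, 250 bases before to 50 after the start) were held for 6 of the 9 genes, and HLA-E, NLRC5 and CIITA had no entry. Shown are the classical class I genes HLA-B and HLA-C, their light chain B2M, the pump gene TAP1 at its upstream start, and TAPBP, the gene with most reads among the 9. Capitals mark the Y box (ATTGG), the X2 box (TGACG) and the ISRE (GAAA, any 2 bases, GAAA), each searched on both strands. Where marked matches overlap or touch, they form 1 run of capitals.
HLA-B, chr6:31357130-31357429, minus strand: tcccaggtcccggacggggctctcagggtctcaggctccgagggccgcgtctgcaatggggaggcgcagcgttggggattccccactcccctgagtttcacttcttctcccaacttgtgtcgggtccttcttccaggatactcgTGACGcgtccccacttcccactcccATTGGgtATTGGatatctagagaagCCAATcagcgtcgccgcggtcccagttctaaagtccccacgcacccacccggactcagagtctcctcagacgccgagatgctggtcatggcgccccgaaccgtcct
HLA-C, chr6:31272043-31272342, minus strand: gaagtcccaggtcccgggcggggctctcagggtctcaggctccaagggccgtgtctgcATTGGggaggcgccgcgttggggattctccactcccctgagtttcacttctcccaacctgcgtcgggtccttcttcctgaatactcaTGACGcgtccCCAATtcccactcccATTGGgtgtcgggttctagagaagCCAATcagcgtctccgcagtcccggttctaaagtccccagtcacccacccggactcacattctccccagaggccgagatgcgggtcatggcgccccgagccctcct
B2M, chr15:44711267-44711566, plus strand: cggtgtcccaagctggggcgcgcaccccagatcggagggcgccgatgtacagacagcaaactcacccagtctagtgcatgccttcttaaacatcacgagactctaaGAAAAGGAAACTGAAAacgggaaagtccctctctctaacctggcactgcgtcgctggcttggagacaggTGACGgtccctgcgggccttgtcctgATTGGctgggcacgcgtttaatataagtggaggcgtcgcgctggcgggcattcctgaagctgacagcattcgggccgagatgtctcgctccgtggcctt
TAP1, chr6:32853655-32853954, minus strand: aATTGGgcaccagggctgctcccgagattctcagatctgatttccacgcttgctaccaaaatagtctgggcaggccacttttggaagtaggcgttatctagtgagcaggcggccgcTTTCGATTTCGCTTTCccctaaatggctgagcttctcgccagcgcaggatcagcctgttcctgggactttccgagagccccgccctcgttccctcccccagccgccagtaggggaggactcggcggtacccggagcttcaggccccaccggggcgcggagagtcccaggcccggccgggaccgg
TAPBP, chr6:33314029-33314328, minus strand: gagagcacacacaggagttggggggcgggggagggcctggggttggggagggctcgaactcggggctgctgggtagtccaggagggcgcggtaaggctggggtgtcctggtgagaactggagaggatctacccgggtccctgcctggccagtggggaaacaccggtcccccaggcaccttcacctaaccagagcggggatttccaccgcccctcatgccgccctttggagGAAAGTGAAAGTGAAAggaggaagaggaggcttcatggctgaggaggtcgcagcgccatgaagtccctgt

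HLA-B, HLA-C and B2M held both the X2 box and the Y box, with the X2 box beginning 106, 105 and 75 bases before the start. Of all 35116 promoters of this length in the RefSeq table, 24.6% held an X2 box and 34.6% a Y box. TAP1 held a Y box, TAP2 an X2 box, and TAPBP neither. Members are counted here at 1 start each. TAP1 has a second RefSeq start, the 7th promoter of these genes, which held no ISRE, X2 box or Y box. An exact match to the ISRE pattern was found in B2M, TAP1 at its upstream start, TAP2 and TAPBP, 4 of the 7 promoters, against 3.57% of all promoters. Looser forms of these elements were not searched. A promoter without a match, such as that of HLA-B or HLA-C for the ISRE, may therefore still hold the element. In TAPBP the ISRE match ended 4 bases before the start, and in TAP1 118 bases before it. The kappa B pattern (GGG, any 5 bases, CC) was in all 7 promoters and in 58.7% of all promoters. An SP1 pattern (GGGCGG) was in HLA-C, TAP1, TAP2 and TAPBP (45.0% of all promoters), a GAS pattern (TTC and GAA with 3 or 4 bases between) in HLA-C and at the second TAP1 start (13.5%) and TATAAA in TAP2 (11.5%). The letters GCAACAG, as in the X1 box, and CACGTG, the E box, were in none of the 7, and in 4.33% and 7.26% of all promoters. HLA-B and HLA-C were identical in 88.5% of 304 aligned positions, with a longest identical run of 25 bases. How reads that fit several places were treated is not given in the sources used here, so the split of reads between such near-identical genes is uncertain.

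The 2 libraries held 4154920 (DMSO) and 2136291 (untreated) reads, of which 4 ribosomal RNA windows took 42.2% with DMSO and 71.5% untreated. CPM (counts scaled to the library total) are therefore not compared between the libraries. A single read made 0.241 CPM with DMSO and 0.468 CPM untreated. Erythroid markers stood at 1 CPM or more in both libraries in 11 of 13 windows, with 3439 reads in sum with DMSO and 1190 untreated. HBE1 had no read. Neural marker windows, 12 in number, held 4048 DMSO reads, 2985 of them in CDR1, and 2 untreated reads, and none of them reached 1 CPM in both libraries.

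Which bases of a window could hold counted reads set much of what can be said of 3 of the genes. Reads in bases that lie in more than 1 window were absent from the table: the 1154 windows wholly covered by others held 0 reads. The windows of HLA-B, HLA-C, HLA-E, TAP1, NLRC5 and CIITA shared no base. TAPBP kept 3555 of its 6000 bases, from base -555 relative to its window's start site onward, since the rest lay in the window of its upstream neighbour ZBTB22. B2M kept 170 bases (chromosome 15, 44714317 to 44714486), 2830 bases past the start site, because the window of PATL2 covered the other 5830. TAP2 kept 52 bases (chromosome 6, 32835771 to 32835822), with AL669918.1 over 5948 bases and PSMB8-AS1, PSMB9 and PSMB8 over fewer. The promoters of B2M and TAP2 thus lay wholly in bases whose reads were not counted.

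**Figure D1:**
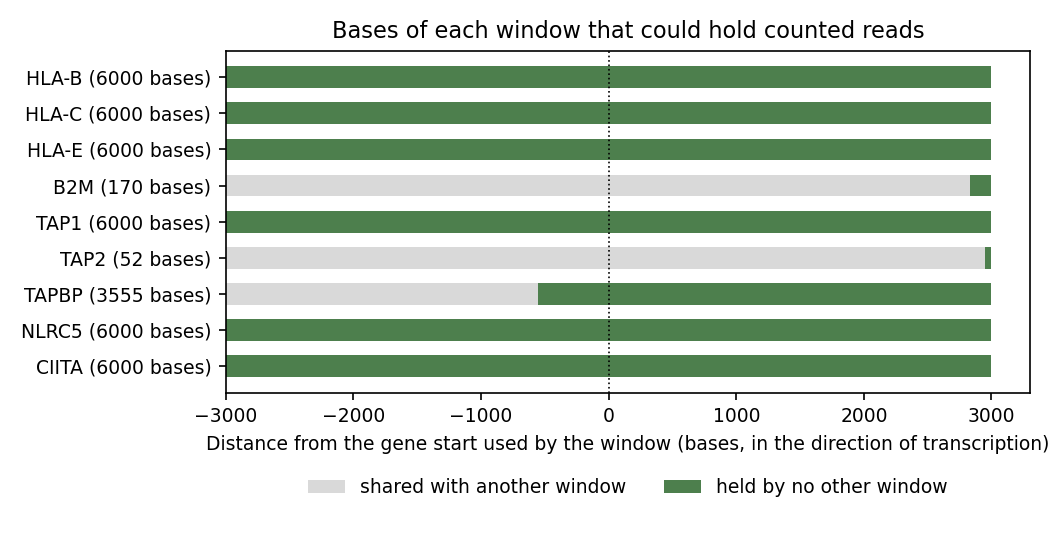
Position of the bases held by no other window (green) and of shared bases (grey) in each of the 9 windows, in bases from the window's gene start along the direction of transcription. B2M and TAP2 keep 170 and 52 bases at their far ends and no base at the start, TAPBP keeps 3555, and the other 6 windows are whole.

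Few reads fell in these windows. All 9 together held 163 DMSO and 38 untreated reads, and TAPBP alone gave 105 of these 201. Without TAPBP the sums were 85 and 11 reads. A level of 1 CPM in both libraries was reached by 2 of the 9 windows, HLA-E and TAPBP, which is 22.2%, against 34.7% of all windows in the table. With CPM taken over reads outside ribosomal and mitochondrial windows 5 of the 9 reached it, against 44.1% of all windows. At 5 CPM 1 member did (23.2% of all windows) and at 20 CPM none (9.34%). Among the 6 members whose windows shared no base 1 reached it, HLA-E, against 42.1% of all windows that shared no base and 52.7% of those of protein-coding genes. In the DMSO library alone 7 of the 9 reached 1 CPM (48.5% of all windows), and in the untreated library alone 2 did (36.2%). In these cell cultures fewer cells transcribing a gene and less transcription in each cell cannot be told apart.

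**Figure D2:**
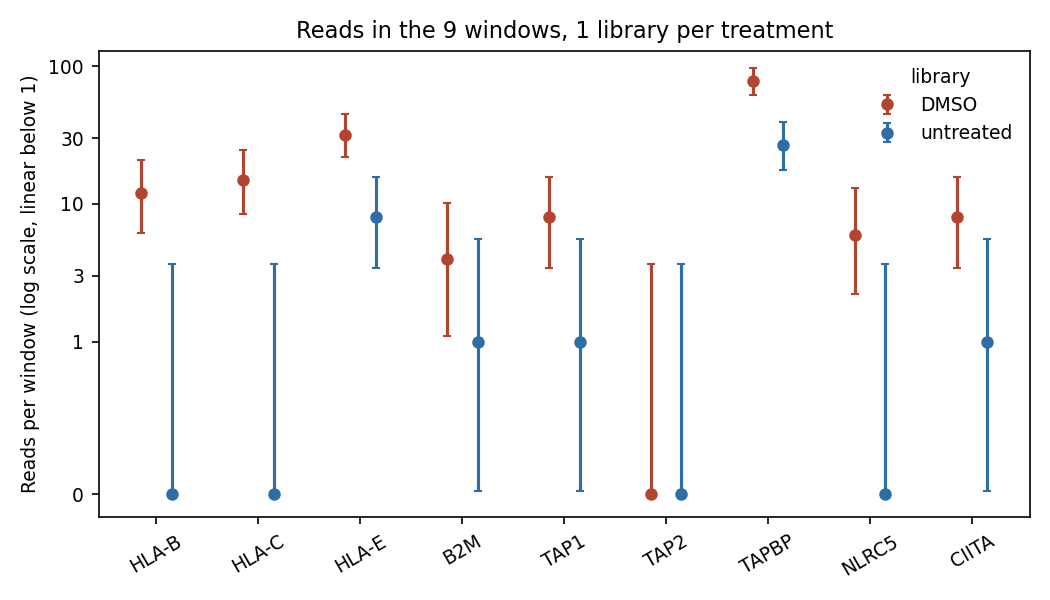
Reads per window for each of the 9 genes in the DMSO (red) and untreated (blue) library, on a log scale that is linear below 1. Points are counts and bars exact 95% Poisson intervals. TAPBP and HLA-E stand highest in both libraries, and HLA-B, HLA-C, NLRC5 and TAP2 have 0 untreated reads.

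The classical heavy chain genes HLA-B and HLA-C, whose products present peptides to T cells and, for HLA-C above all, engage killer cell receptors, had reads in the DMSO library alone. HLA-B (chromosome 6, 31354189 to 31360188) held 12 DMSO reads (interval 6.20 to 21.0), or 2.89 CPM, and 0 untreated reads. The interval of its untreated count of 0 reached 3.69 reads, or 1.73 CPM. HLA-C (31269131 to 31275130) held 15 DMSO reads (interval 8.40 to 24.7), or 3.61 CPM, and again 0 untreated. Both genes lay below the middle of the protein-coding windows that shared no base, of which 54.9% held more DMSO reads than HLA-B and 52.7% more than HLA-C. In the untreated library 65.3% of those windows held at least 1 read. The HLA-B window also covers the microRNA gene MIR6891.

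HLA-E, whose product displays signal peptides of other class I chains to the NKG2A receptor of natural killer cells, was the most read of these 3 heavy chain genes in both libraries. It held 32 DMSO reads (interval 21.9 to 45.2), or 7.70 CPM, and 8 untreated reads (3.45 to 15.8), or 3.74 CPM. The HLA-E window also covers part of the pseudogene RANP1. Of the protein-coding windows that shared no base, 45.6% held more reads with DMSO and 44.0% more untreated, so that HLA-E was near the middle of them in either library.

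For B2M, the light chain gene, 4 DMSO reads (interval 1.09 to 10.2) and 1 untreated read (0.0253 to 5.57) fell in its 170 countable bases. That stretch lies downstream of the start, so the counts say nothing of polymerases at the B2M promoter. Of the 2021 windows with 100 to 250 countable bases, a range set after the B2M count was seen, 54.0% held no DMSO read and 16.2% held 4 or more. Per kb of countable bases B2M stood at 5.66 CPM with DMSO (interval 1.54 to 14.5) and 2.75 CPM untreated (0.0697 to 15.3).

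Among the genes of the peptide loading complex TAPBP was read and the pump genes were not, or barely. TAPBP (chromosome 6, 33311388 to 33317387) held 78 DMSO reads (interval 61.7 to 97.3), or 18.8 CPM, and 27 untreated reads (17.8 to 39.3), or 12.6 CPM. ZBTB22, a zinc finger gene on the same strand, ends upstream of TAPBP within this window. Its RefSeq body ends at base 33314418, inside the countable bases of TAPBP, which reach to 33314942. Polymerases in that end of ZBTB22 or running on from it cannot be told apart from those of TAPBP. The TAPBP count and its level per kb may thus include reads of ZBTB22. The window of ZBTB22 held 39 DMSO and 14 untreated reads in its 2629 countable bases. TAP1 (32850979 to 32856978) held 8 DMSO reads (interval 3.45 to 15.8), or 1.93 CPM, and 1 untreated read, or 0.468 CPM. The TAP1 window also contains the RefSeq start of PSMB9, an immunoproteasome gene that faces away from TAP1, so the reads there cannot be assigned to either gene of the pair. TAP2 (32835771 to 32841770) held no read in either library, which over 52 countable bases carries little information: of 2108 windows with 1 to 99 such bases, 72.3% held no read at all.

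The 2 coactivator genes were close to 0. NLRC5 (chromosome 16, 56986485 to 56992484), the class I coactivator, held 6 DMSO reads (interval 2.20 to 13.1), or 1.44 CPM, and 0 untreated reads. The NLRC5 window also covers part of the long noncoding RNA gene LOC124903696, so its reads cannot be assigned to NLRC5 alone. CIITA (10863222 to 10869221), the class II coactivator, held 8 DMSO reads (3.45 to 15.8), or 1.93 CPM, and 1 untreated read. More DMSO reads than in NLRC5 were found in 62.9% of the protein-coding windows that shared no base, and more than in CIITA or TAP1 in 59.5%. CIITA is known to use several promoters in immune cells, and its window lies around 1 annotated start.

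**Figure D3:**
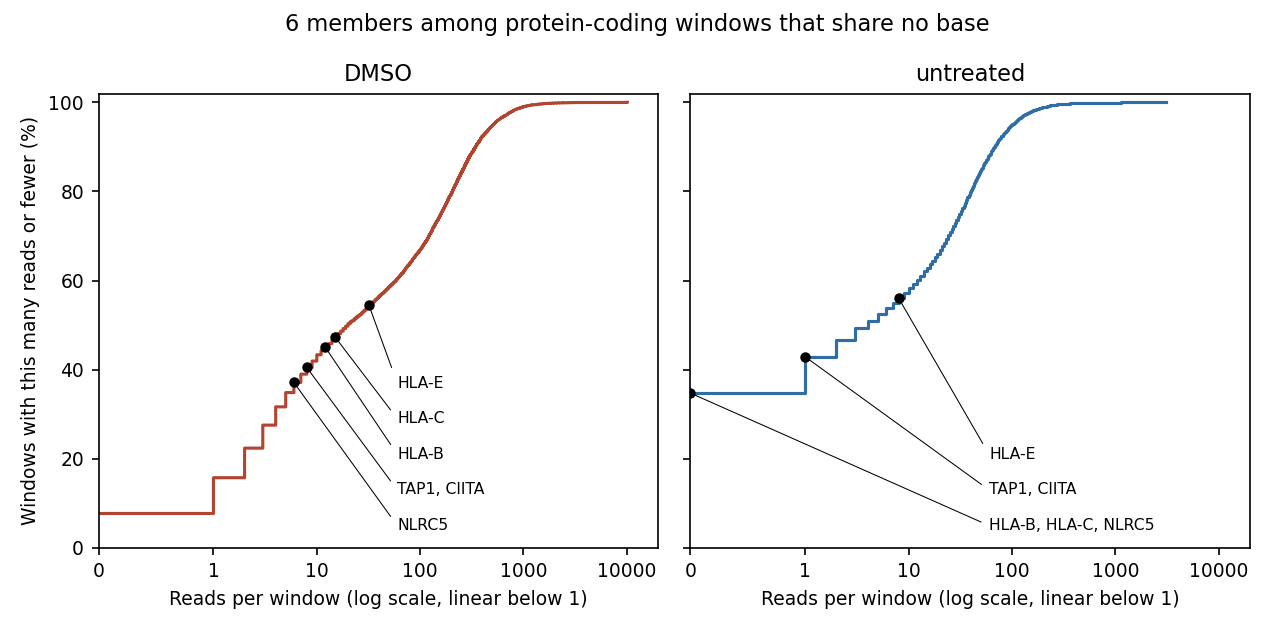
Share of the 11035 protein-coding windows that share no base (%, vertical axis) holding a given number of reads or fewer (log scale, linear below 1), in the DMSO library (left) and the untreated library (right). Black points mark the 6 members with such windows, all of which but HLA-E lie below 50% in both libraries.

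Levels can be ordered among the genes only per kb of countable bases, and these are unlike stretches. Relative to the start site, the countable bases of TAPBP run from -555 to 2999. Those of the windows that shared no base run from -3000 to 2999 and so hold more upstream bases. With DMSO, TAPBP stood at 5.28 CPM per kb (interval 4.17 to 6.59), HLA-E at 1.28 (0.878 to 1.81), HLA-C at 0.602 (0.337 to 0.992), HLA-B at 0.481 (0.249 to 0.841), TAP1 and CIITA at 0.321 each (0.139 to 0.632) and NLRC5 at 0.241 (0.0883 to 0.524). In this order the intervals of TAPBP and HLA-E lay apart, and those of every other pair of neighbours overlapped. B2M, at 5.66 in its 170 countable bases, had an interval of 1.54 to 14.5. That interval held the one of TAPBP, overlapped that of HLA-E and lay above those of HLA-C, HLA-B, TAP1, CIITA and NLRC5. The place of B2M relative to TAPBP and HLA-E is thus not known. In the untreated library TAPBP stood at 3.56 CPM per kb (2.34 to 5.17), HLA-E at 0.624 (0.269 to 1.23) and TAP1 and CIITA at 0.0780 each (upper limit 0.435), while HLA-B, HLA-C and NLRC5, with no read, had an upper limit of 0.288. B2M stood at 2.75 untreated (0.0697 to 15.3), with an interval that overlapped all of these. Leaving out B2M and TAP2, which have few countable bases, TAPBP and HLA-E led in both libraries. Over the 2 libraries the window nearest to TAPBP in CPM was that of NTPCR on chromosome 1, with the same 78 and 27 reads, and 39 windows lay within a distance of 0.1 on the log2 scale of CPM plus 1, so such likeness over 2 values is not particular.

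Other genes of the same stretch of chromosome 6 were read in these libraries. From 28 to 34 Mb, the segment that holds the HLA genes, 62 windows of protein-coding genes that are neither HLA genes nor members shared no base, and 34 of them (54.8%) reached 1 CPM in both libraries, against 52.7% of 10954 such windows elsewhere. Their median was 18.5 DMSO and 3.5 untreated reads, with at most 458 DMSO reads, in LEMD2, an inner nuclear membrane protein gene, and at most 76 untreated reads, in DDAH2 (both named after their values were seen). The windows of the class I genes HLA-B, HLA-C, HLA-E, HLA-F and HLA-G had a median of 12 DMSO and 0 untreated reads, with 0 to 32 and 0 to 8 reads, and 1 of them reached 1 CPM in both libraries. The 10 class II HLA windows had a median of 1 DMSO and 0.5 untreated reads, none above 4 and 1, and none reached that level.

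**Figure D4:**
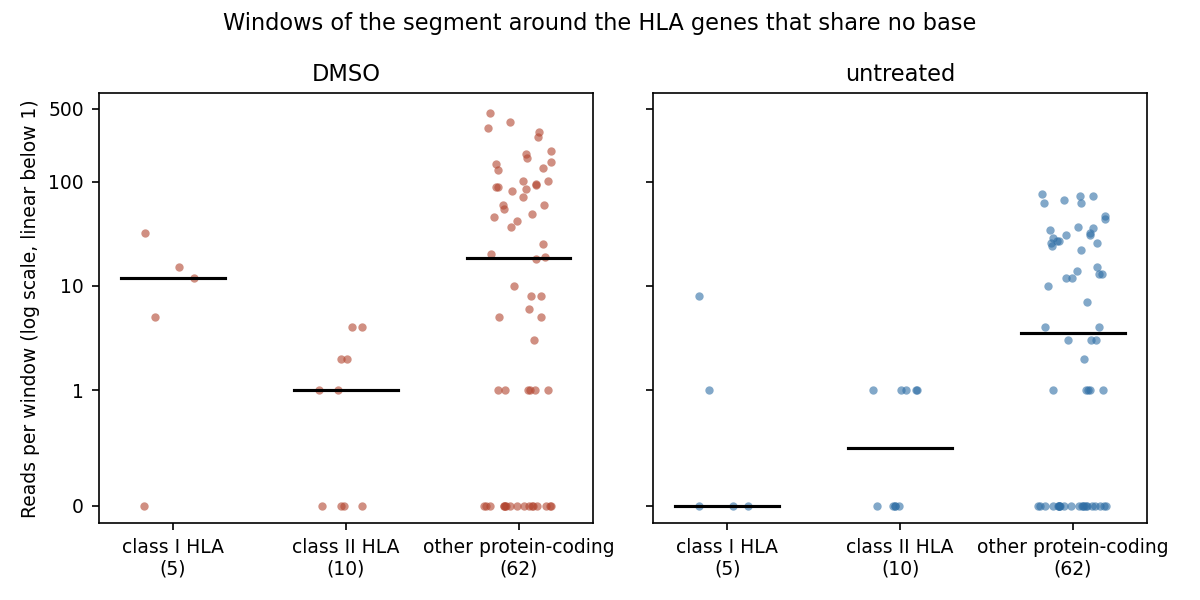
Reads per window (log scale, linear below 1) for windows that share no base between 28 and 34 Mb of chromosome 6, by class, in the DMSO (left) and untreated (right) library. Points are windows, black bars medians (12, 1 and 18.5 reads with DMSO, 0, 0.5 and 3.5 untreated), and the number of windows stands under each class.

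The rest of the class II pathway was mostly near 0, like CIITA. Of its 15 windows 2 (13.3%) reached 1 CPM in both libraries, against 34.7% of all windows, and both encode lysosomal enzymes rather than class II chains. IFI30, a thiol reductase, held 189 DMSO and 74 untreated reads, and CTSL, the protease cathepsin L, 149 and 35. The invariant chain gene CD74 held 5 and 1 reads and the cathepsin S gene CTSS 6 and 2. Of the other class I and class I-like genes 2 of 12 windows (16.7%) reached it, namely HFE, the iron regulator, with 72 DMSO and 37 untreated reads, and MR1, which presents vitamin B metabolites, with 27 and 12. FCGRT, the neonatal Fc receptor, held 7 and 1.

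In the list of peptide loading and trimming genes 6 of 9 windows (66.7%) reached 1 CPM in both libraries, against 34.7% of all windows and 52.7% of protein-coding windows that share no base. CALR, the chaperone calreticulin, held 663 DMSO and 95 untreated reads, PDIA3, the disulfide isomerase of the loading complex, 378 and 42, ERAP1, which trims peptides, 352 and 27, and the chaperone CANX 153 and 87. Among proteasome genes 6 of 9 (66.7%) did, among them the constitutive subunit PSMB5 with 212 and 80 reads, PSME3 with 190 and 39, PSMB6 with 121 and 14 and PSMB7 with 101 and 6. PSMB8 and PSMB9, the interferon-induced subunits encoded beside TAP1 and TAP2, had no read, in windows with 544 and 0 countable bases. PSMB10, a further such subunit, held 44 and 22 reads in 847 countable bases. These 3 were named after their values were seen.

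Many genes of factors that act on HLA promoters held more reads than any HLA window. Of 21 such windows 12 (57.1%) reached 1 CPM in both libraries, near the 52.7% of protein-coding windows that share no base (34.7% of all windows). All 12 were among the 14 with at least 1 kb of countable bases. Each of these 12 held more reads than HLA-E in both libraries. NFYA, a subunit of NF-Y, held 1015 DMSO and 151 untreated reads, NFYB 536 and 32, ATF1 698 and 152, and RFXAP, a subunit of RFX, 91 and 30. RFX5 and RFXANK, the other RFX subunits, held 1 and 0 DMSO reads with 391 and 0 countable bases, which leaves them unmeasured; both were named after their values were seen. EZH2, the catalytic subunit of the repressive Polycomb complex PRC2, held 1351 and 150 reads, the most DMSO reads of the list. Its partner genes SUZ12 and EED, named after their values were seen, held 397 and 87 and 141 and 34. In the interferon pathway 16 of 28 windows (57.1%) reached the level, again near the 52.7% of protein-coding windows that share no base. SOCS1, a feedback inhibitor of JAK kinases, held 825 DMSO and 130 untreated reads, the kinase gene JAK2 347 and 60, the transcription factor gene IRF7 353 and 53, and the antiviral gene IFITM1 215 and 97. Other windows of this list that shared no base ranged from many reads to none. JAK1 held 272 DMSO and 57 untreated reads, IFNAR1 251 and 37, TYK2 218 and 56, and IRF9 199 and 49. OAS1 held 1 and 0 reads, GBP1 3 and 0, IFIT1 4 and 1, GBP2 10 and 1, IFIT3 15 and 3, and CXCL10 none. MX1 held 21 and 5. These genes were named after their values were seen.

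Setting DMSO against untreated cells asks whether the solvent control differs from unperturbed cells, and here it compares 2 libraries. Ratios were scaled with TMM and set against the median window of the 6591 that passed a floor (mean level of 5 CPM, and 100 reads in all). At that median 4.68 DMSO reads met 1 untreated read. TAPBP was the 1 member past the floor, against 17.9% of all windows. Its log2 DMSO/untreated ratio relative to the median window was -0.71 (interval -1.34 to -0.01), and 15.3% of the windows past the floor stood lower. The TAPBP interval held 0 in 9 of 16 other settings and lay below 0 in 7. Those 7 include the centred forms of the other scalings, which equal the main setting by construction. They also include a floor that TAPBP itself fails (20 CPM and 400 reads). With a floor of 1 CPM and 20 reads the ratio was -0.58 (interval -1.21 to 0.12). None of the members past the floor, a single window, was 2-fold apart, against 14.8% of all windows past the floor. Counting intervals lay wholly off the median in 47.3% of those windows.

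**Figure D5:**
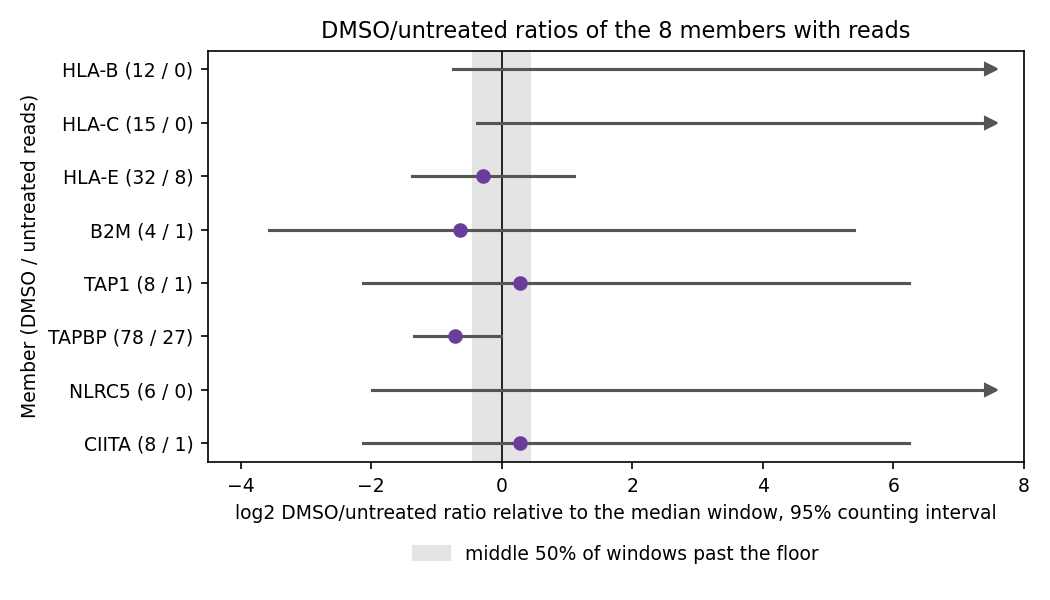
log2 DMSO/untreated ratio relative to the median window (horizontal axis) for the 8 members with reads, with DMSO and untreated reads in brackets. Points are ratios, lines exact 95% counting intervals and arrows intervals without an upper limit, where untreated reads are 0. The grey band holds the middle 50% of the windows past the floor. The line of TAPBP alone ends short of 0, at -0.01. It does so in 7 of 16 other settings, some of which equal the main setting by construction.

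For 7 of the 8 members with reads the interval held the median window. HLA-E stood at -0.29 (interval -1.37 to 1.10), B2M at -0.64 (-3.56 to 5.40), and TAP1 and CIITA at 0.28 each (-2.12 to 6.25). For HLA-B, HLA-C and NLRC5, with no untreated read, the median ratio would have given 2.57, 3.21 and 1.28 untreated reads. The interval of a count of 0 reached 3.69 reads, so a difference was not detectable at this depth for any of the 3 taken singly. Their lower limits were -0.75, -0.38 and -1.99 on the log2 scale. Among the windows that shared no base and held 12 to 15 DMSO reads, a range set after their counts were seen, 31% (240 of 775) also held 0 untreated reads.

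Summed by role, the heavy chain genes HLA-B, HLA-C and HLA-E held 59 DMSO and 8 untreated reads, which is 0.58 relative to the median window on the log2 scale (interval -0.41 to 1.93). HLA-B and HLA-C without HLA-E summed to 27 DMSO and 0 untreated reads, where the median ratio would have given 5.77 untreated reads. The counting interval of that pair had a lower limit of 0.55 and no upper limit. It lay above the median window, with no replicate to check it. The pair joins members that each held 0 untreated reads, so its interval is no separate support for a difference. Other sums had intervals that held the median window. NLRC5 and CIITA summed to 14 DMSO and 1 untreated reads, or 1.05 (-1.13 to 6.98). The 6 members whose windows shared no base summed to 81 and 10, or 0.73 (-0.16 to 1.91). All 9 members summed to -0.14 (-0.64 to 0.42), and to 0.67 without TAPBP (-0.19 to 1.78). Markers of other cells did not share 1 ratio between the libraries. The 12 neural markers summed to 4048 DMSO and 2 untreated reads, of which CDR1 gave 2985 and 0, so that the other 11 held 1063 and 2. The 7 monocyte markers summed to 90 and 5 reads. Both sums held more DMSO reads per untreated read than the 4.68 of the median window. The 11 markers of B and dendritic cells summed to 256 and 68 reads and the 10 of T and NK cells to 80 and 47, fewer DMSO reads per untreated read than at the median window. Those at 1 CPM in both libraries numbered 0, 1, 2 and 3, and CD79B, CLEC9A, EBF1 and FLT3 of the B and dendritic cell list had no read. The part of such RNA in the DMSO reads of HLA-B and HLA-C was not tested.

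Pathway genes past the floor spread around the median window in both directions. In the peptide loading list 5 windows passed the floor with a median of 0.57, against 0 for all windows past the floor, and 1 was at least 2-fold higher and 1 at least 2-fold lower, namely ERAP1 at 1.45 (interval 0.91 to 2.10) and CANX at -1.41 (-1.80 to -1.01). Of all windows past the floor 6.86% were that much higher and 7.97% lower. In the proteasome list 4 passed, with a median of 0.44, from PSMB5 at -0.83 to PSMB7 at 1.74, the 1 window past 2-fold. Among the promoter factors 11 passed, with a median of 0.39, from RFXAP at -0.64 to NFYB at 1.82 (1.33 to 2.40), the 1 window past 2-fold, and EZH2 stood at 0.94. Among interferon pathway genes 10 passed, with a median of 0.16, from IFITM1 at -1.08, the 1 window past 2-fold, to IFNGR2 at 0.55. HFE stood at -1.27 (-1.86 to -0.65), IFI30 at -0.88 and CTSL at -0.15. All windows past the floor had quartiles of -0.44 and 0.43.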

How the data were processed

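PRO-seq libraries of DMSO-treated and untreated K562 cells (1 each) were analysed from the authors' deposited table of read counts per 6000-base window. Per the submitters' processing notes, Bowtie2 2.3.5 and featureCounts 2.0.1 were used, with hg38; strand setting, duplicates and treatment of multiply mapping reads are not given in the sources used here. The authors' TPM and mean TPM, deposited in the same table, were not used. CPM were computed from the counts, and countable bases are those held by no other window on either strand. Ratios used TMM factors of edgeR 4.0.16 (R 4.3.3), by which 3.81 DMSO reads equal 1 untreated read, a prior count of 0.5 reads, and centring on the median window past the floor (0.30 on the log2 scale under TMM). Intervals are exact Poisson and Clopper-Pearson (SciPy 1.17.1). Reads carry no molecular identifiers, so intervals cover counting error only. Ratio code was tested on simulated data. Alternatives covered scaling, among them DESeq2 1.42.0 size factors, floors, prior counts, thinning and thresholds.

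The members, gene lists and marker lists were chosen with earlier results of these data known. All 9 members were named, as were the windows that share bases with theirs, the window nearest to each member past the floor and, from each list, the 4 of highest mean CPM and the extreme ratios past the floor; some genes that this rule selects are not reported here. Promoters are RefSeq's. Window starts came from the deposited table and gene ends from the RefSeq table of GRCh38.p14.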

Additional observations from a re-analysis of the deposited data

How the results depend on the processing

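No paired analysis was possible because DMSO and untreated cells are represented by a single library each, and no replicate could be left out. The number of members at 1 CPM in both libraries (2) was 1 at 5 CPM and 0 at 20 CPM. It was 5 with CPM over reads outside ribosomal and mitochondrial windows, since those take unequal shares, and 7 in the DMSO library alone, a setting chosen after the data were seen. The summed level of the 9 members was 39.2 CPM with DMSO and 17.8 CPM untreated. Over reads outside ribosomal and mitochondrial windows it was 72.5 and 72.3 CPM, and per kb of unshared bases 0.986 and 0.447 CPM. The ratio of TAPBP, which is also the median of the members past the floor, was 0.55 with library totals and no centring, and lay between -0.84 and -0.42 in the other settings that gave it; its interval held 0 with library totals, DESeq2 size factors, upper quartile, TMM and totals outside ribosomal and mitochondrial windows, each not centred, with a prior count of 2, with floors of 1 CPM and 20 reads or any read (upper limit 0.15), and with the DMSO library thinned (0.03). With any read as the floor 8 members counted, with a median of 0.43, and 3 were past 2-fold, those with no untreated read; at 1.5-fold 1 member, TAPBP, was past it. At 20 CPM and 400 reads no member passed. NK cell ligand windows at 5 CPM numbered 3 in place of 5. The other 60 values of main results stayed within their interval or within 1.5 times. Among them are the centred scalings, whose ratios cannot differ from the main setting. The cause of these differences was not tested beyond what each setting changes by construction. Depth limits all members but TAPBP, since HLA-E held 40 reads over both libraries and each of the others 15 or fewer. B2M and TAP2 are limited by their 170 and 52 countable bases as well.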

Other observations

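Ligands of natural killer cell receptors and T cell co-stimulation genes were read unevenly. Of 13 windows of killer cell ligands 5 (38.5%) reached 1 CPM in both libraries, against 34.7% of all windows and 52.7% of protein-coding windows that share no base. NECTIN2, a ligand of the activating receptor DNAM-1, held 170 DMSO and 39 untreated reads, and PVR, a ligand of the same receptor, 64 and 18. ULBP1, a ligand of the activating receptor NKG2D, held 29 DMSO and 32 untreated reads, a log2 DMSO/untreated ratio of -2.37 relative to the median window (interval -3.14 to -1.60), below the floor of 100 reads. ULBP2, another ligand of NKG2D, held 10 and 5 reads. MICA and MICB, encoded near HLA-B and named after their values were seen, held no read, with 0 and 55 countable bases.

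Among 9 windows of T cell co-stimulation and inhibition genes 4 (44.4%) reached 1 CPM in both libraries. The shares were 34.7% of all windows and 52.7% of protein-coding windows that share no base. The adhesion genes CD58 and ICAM1 held 248 and 202 DMSO reads and 59 and 46 untreated reads, and CD47, the signal against phagocytosis, 199 and 31. CD80, a ligand of CD28, held 10 and 3. Ratios relative to the median window were -0.16 for CD58, -0.10 for ICAM1 and 0.44 for CD47, all with intervals that held 0.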
